A study of Rattus norvegicus with 10 samples.

Results

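Nrep, Ttc9b, Plppr3 and Tbc1d9b are 4 genes, grouped here as neuronal, outside the usual axonal families. All were lower in adult than in embryonic sensory axons, and the cells that express them were not tested. They were chosen by name from the 14217 genes of the array because their adult values were far below, and did not overlap with, their embryonic values, and no numeric limit was set in that choice. The stage difference of these genes is therefore given as a description, with no test. They are represented by 5 of the 31042 probe sets that are not controls, 2 for Tbc1d9b and 1 for each of the others. The samples were axons of rat dorsal root ganglion neurons, 5 arrays from adult animals and 5 from embryos at embryonic day 16. Ganglion explants of both stages had been kept for 4 days in chambers with compartments, and the outer one yielded the axons, which were over 1 cm long. The labels name no further treatment, strain or adult age, and the sources used here do not say whether animals were pooled. They describe the samples as biological replicates, 5 for each stage, without saying whether these came from separate animals, so p-values below measure the spread between these samples.

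Nrep (neuronal regeneration related protein, also called P311) is a small intracellular protein. In mice it was linked to the regrowth of injured facial nerve axons, and in mouse cells it binds a subunit of the translation initiation factor eIF3 and raises the translation of TGF-beta. Plppr3 (phospholipid phosphatase related 3, also called PRG-2) is a membrane protein related to lipid phosphate phosphatases, but without their catalytic activity, and in mouse neurons it promotes axonal filopodia and branches. Tbc1d9b carries a TBC domain, the fold that switches off Rab GTPases by speeding GTP hydrolysis, and in canine kidney cells it acts on Rab11a, the Rab of recycling endosomes. Ttc9b is a protein with tetratricopeptide repeats, helical repeats that bind other proteins, and its function is little described.

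The regions before the start sites are shown because the 4 genes were lower together. RefSeq promoter windows (build GRCr8) were matched by symbol for 4 of 4 genes, and the bases before the start site are printed 5′ to 3′ on the strand of the gene, with capitals for a match to a searched motif. They lie at chr18:25320743-25320992 (minus strand), chr1:92080776-92081025 (plus strand), chr7:10481539-10481623 (plus strand) and chr10:34960762-34961011 (plus strand). For Plppr3 the printed part is the 85 bases outside the span of the gene, and for the others all 250 bases.
Nrep: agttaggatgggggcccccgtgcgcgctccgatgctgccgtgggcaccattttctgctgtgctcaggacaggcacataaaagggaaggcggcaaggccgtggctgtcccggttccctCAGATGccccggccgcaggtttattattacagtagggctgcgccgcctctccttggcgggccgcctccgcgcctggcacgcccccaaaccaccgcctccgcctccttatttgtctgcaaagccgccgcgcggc
Ttc9b: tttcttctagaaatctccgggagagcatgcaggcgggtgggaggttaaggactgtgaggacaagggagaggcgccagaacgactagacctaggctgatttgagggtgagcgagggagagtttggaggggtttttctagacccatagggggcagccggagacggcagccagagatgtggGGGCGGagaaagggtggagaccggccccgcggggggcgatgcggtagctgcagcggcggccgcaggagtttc
Plppr3: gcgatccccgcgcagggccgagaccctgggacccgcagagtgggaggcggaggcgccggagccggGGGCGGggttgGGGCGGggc
Tbc1d9b: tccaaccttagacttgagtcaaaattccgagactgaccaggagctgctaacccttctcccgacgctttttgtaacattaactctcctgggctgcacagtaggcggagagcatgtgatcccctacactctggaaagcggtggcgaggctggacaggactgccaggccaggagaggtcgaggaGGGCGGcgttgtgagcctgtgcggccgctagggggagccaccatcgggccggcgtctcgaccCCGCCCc
The GC box GGGCGG, the site of Sp family factors, was found on either strand in the windows of Ttc9b, Plppr3 and Tbc1d9b and not in that of Nrep. It was present in 30.5% of all 33469 rat promoter windows of 250 bases. Nrep held CAGATG, an E-box of neurogenic basic helix-loop-helix factors, present in 14.0% of windows. The letters of the TATA box (TATAAA, 12.9% of windows), the CCAAT box (CCAAT, 34%), the left arm of the RE1 element (TCAGCACC, 1.25%), the cAMP response element (TGACGTCA, 1.59%), the canonical E-box (CACGTG, 5.59%) and the core of the NRF1 site (4.8%) were in 0 of the 4 windows on either strand. No motif searched was found in all 4. The windows held 66.4% G and C bases for Nrep, 62.4% for Ttc9b, 77.6% for Plppr3 and 61.6% for Tbc1d9b, above the median of 51.2% over all windows.

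Expression values are on the log2 scale of the deposited table, where 1 unit is a doubling. An array's background level was taken as the 95th percentile of its probe sets for genes restricted to other tissues, and it ranged from 3.21 to 4.41. The arrays differed in the standard deviation of all their values, from 1.52 to 2.09. Adult replicates 4 and 5 and embryonic replicates 1 and 5 lay above the middle of this range and are called wide, and the other 6 arrays narrow. Poly-A control transcripts, which are added before labelling, averaged 7.86 to 12.02 on adult arrays and 1.89 to 2.58 on embryonic arrays, and the 5S ribosomal RNA control was at 2.72 to 5.62 on adult and 7.43 to 10.32 on embryonic arrays. Both controls separated the stages, so that labelling and stage cannot be told apart. Of 14 neuron markers, 5 fell in adult samples by limma (Elavl4, Tubb3, Nefl, Nefm and Prph; adjusted p at most 0.05) and 0 rose, where 0.647% of all genes fell. The summed log2 level of the 14 was 68.5 to 94.0 on adult and 95.7 to 122.4 on embryonic arrays, and Syt1 and Ncam1 were above background on 0 adult arrays. Of 13 macrophage and leucocyte markers, 7 rose and 0 fell, where 0.612% of all genes rose, with summed levels of 92.4 to 115.6 on adult and 45.8 to 80.2 on embryonic arrays. Cd163 and Itgam of that list were above background on 0 embryonic arrays. Of 5 blood markers 1 fell, Hbe1, with summed levels of 12.8 to 20.7 and 22.1 to 27.3 on adult and embryonic arrays. By limma 0 of 10 Schwann cell markers, 0 of 6 satellite glia markers and 0 of 9 fibroblast markers were called. Of the nuclear factors of sensory neuron cell bodies 0 of 8 were called, against 1.26% of all genes. In the same order 2, 1, 4 and 3 had an unadjusted limma p under 0.05, against 13.3% of all genes. Log2 differences of the fibroblast markers ran from -3.63 to 4.26. A trended, robust variance also called 0 in each of these lists. Their summed levels were 44.6 to 65.8 on adult and 47.1 to 52.7 on embryonic arrays for Schwann cells, 28.3 to 42.6 and 28.5 to 37.3 for satellite glia, 32.7 to 68.3 and 34.4 to 46.6 for fibroblasts, and 26.3 to 39.6 and 31.2 to 40.0 for the nuclear factors. The satellite marker Kcnj10, the fibroblast marker Fbln1, the blood marker Slc4a1 and the nuclear factors Tlx3 and Neurod1 were above background on 0 of 10 arrays. The nuclear factors Pou4f1 and Drgx were above it on 3 embryonic and 0 adult arrays each. Of the 8 nuclear factors, 7 had a negative log2 difference. The part that these cell types and controls have in the values below was not tested. A smaller share of axonal RNA in a sample and less RNA of a gene per axon cannot be told apart on these arrays.

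Nrep had log2 expression of 2.69, 4.08, 4.82, 2.76 and 7.95 on adult arrays, replicates 1 to 5, against 10.88, 11.09, 10.43, 11.33 and 10.50 on embryonic arrays. The 5 embryonic arrays lay within 0.90 of each other, whereas the adult arrays covered 5.26, with replicate 5 the highest of them. The stages did not overlap, and the highest adult value was 2.48 below the lowest embryonic value. The means were 4.46 ± 2.15 in adult and 10.85 ± 0.38 in embryonic samples (SD, n = 5 each), a log2 difference of -6.39 ± 0.86 (SE), or 83.8-fold lower in adult samples. Nrep was above background on 2 of 5 adult arrays, replicates 3 and 5, and on 5 of 5 embryonic arrays. With values below background set to that level, the difference was 62.5-fold. Without adult replicate 5 the log2 difference was -7.26.

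Ttc9b had log2 expression of 3.43, 3.62, 3.94, 4.18 and 3.63 on adult arrays, against 7.84, 8.12, 8.63, 7.42 and 8.34 on embryonic arrays. It was the most even of the 4 genes among adult arrays, with a range of 0.75 there and 1.21 among embryonic arrays. The gap between the highest adult and the lowest embryonic array was 3.24, the widest of the 4 genes. The means were 3.76 ± 0.30 in adult and 8.07 ± 0.47 in embryonic samples (SD, n = 5 each), a log2 difference of -4.31 ± 0.28 (SE), or 19.8-fold lower in adult samples. On adult replicates 1, 2 and 3 the gene lay below the background level, and on replicates 4 and 5 above it by 0.98 and 0.35. That level was 4.03, 4.41 and 4.17 on replicates 1, 2 and 3, but 3.21 and 3.28 on replicates 4 and 5. Ttc9b thus counted as above background at 3.63 on replicate 5 and as below it at 3.94 on replicate 3. The small adult spread is that of values near background. With values below background set to that level, the difference was 15.9-fold lower in adult samples.

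Plppr3 had log2 expression of 3.42, 2.88, 3.17, 4.10 and 5.01 on adult arrays, against 8.14, 7.51, 8.32, 8.17 and 9.18 on embryonic arrays. The 2 highest adult values came from the wide arrays, replicates 4 and 5. Plppr3 was above background on these adult arrays alone, where the background level was the lowest of the adult arrays, at 3.21 and 3.28. The highest embryonic value also came from a wide array, replicate 5. The highest adult value was 2.50 below the lowest embryonic value. The means were 3.72 ± 0.86 in adult and 8.26 ± 0.60 in embryonic samples (SD, n = 5 each), a log2 difference of -4.55 ± 0.44 (SE), or 23.4-fold lower in adult samples. With values below background set to that level, the difference was 15.1-fold lower in adult samples.

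Tbc1d9b, by its brighter probe set, had log2 expression of 4.55, 4.53, 5.88, 6.60 and 5.90 on adult arrays, against 9.09, 9.63, 9.44, 9.53 and 9.55 on embryonic arrays. It was the one gene of the 4 above background on all 10 arrays. The embryonic arrays lay within 0.53 of each other and the adult arrays within 2.08. The means were 5.49 ± 0.92 in adult and 9.45 ± 0.21 in embryonic samples (SD, n = 5 each), a log2 difference of -3.96 ± 0.41 (SE), or 15.5-fold lower in adult samples. The other probe set of Tbc1d9b was at 2.05 to 2.87 on adult and 2.11 to 2.71 on embryonic arrays, below background on all 10, with a log2 difference of 0.01 ± 0.25 (SE). The stages overlapped for that probe set, which gives no measure of the transcript at either stage. The mean of both probe sets gave a log2 difference of -1.97.

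**Figure D1:**
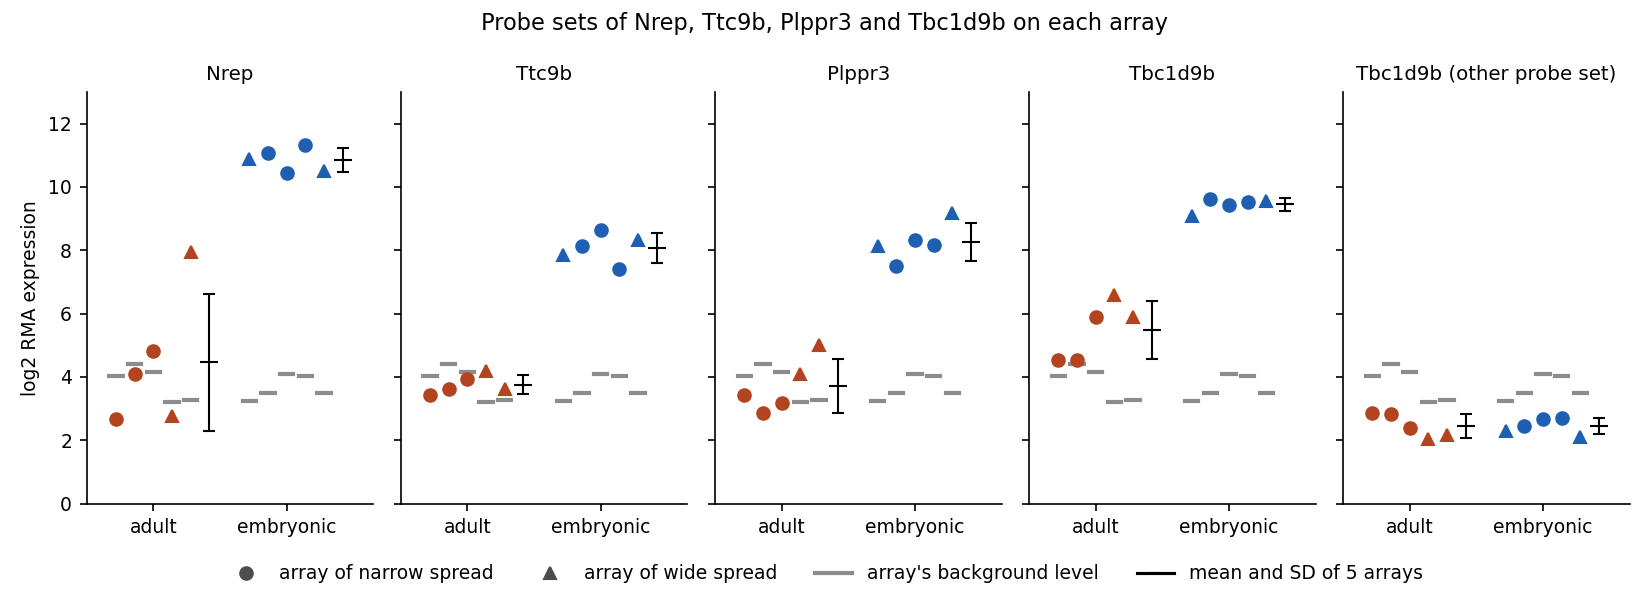
Log2 RMA expression of the 5 probe sets of Nrep, Ttc9b, Plppr3 and Tbc1d9b (vertical axis) on 5 adult and 5 embryonic arrays; each point is 1 array, grey dashes are that array's background level, and black bars are means with SD. All adult points of the first 4 probe sets lie below all embryonic points, Nrep reaches 7.95 on adult replicate 5, and the other probe set of Tbc1d9b stays below background on every array.

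All 4 genes had adult arrays entirely below embryonic arrays, a pattern fixed by the choice of the genes. It was seen in 1.86% of the 14217 genes and in 6 of the 14 neuron markers. The opposite pattern, every adult array above every embryonic array, was seen in 1.67% of genes. Among all genes ordered from the most negative stage difference as deposited, Nrep stood at place 2, Plppr3 at 15, Ttc9b at 20 and Tbc1d9b at 30. With values below background set to that level, the log2 differences were -5.96 for Nrep, -3.92 for Plppr3, -3.99 for Ttc9b and -3.96 for Tbc1d9b. The log2 differences were -7.09 for Nrep, -4.39 for Ttc9b, -4.84 for Plppr3 and -4.55 for Tbc1d9b among the 6 narrow arrays (3 per stage). Among the 4 wide arrays (2 per stage) they were -5.34, -4.18, -4.10 and -3.07 in the same order. Each gene was lower in adult samples within both sets of arrays, which the choice of genes without overlap between stages fixed in advance. Tbc1d9b averaged 4.99 on narrow and 6.25 on wide adult arrays, and Plppr3 3.16 and 4.56, so that both were brighter on the wide adult arrays. Nrep was not even between the wide adult arrays, at 2.76 on replicate 4 and 7.95 on replicate 5. With the 10 values of a gene centred on their mean, Ttc9b and Tbc1d9b had the most similar profiles of the 4 genes, with a root mean squared difference of 0.56 on the log2 scale. That of Ttc9b and Plppr3 was 0.70, that of Plppr3 and Tbc1d9b 0.72, and Nrep differed by 1.55 to 1.84 from the other 3. The measure includes the stage difference, for which the genes were chosen.

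**Figure D2:**
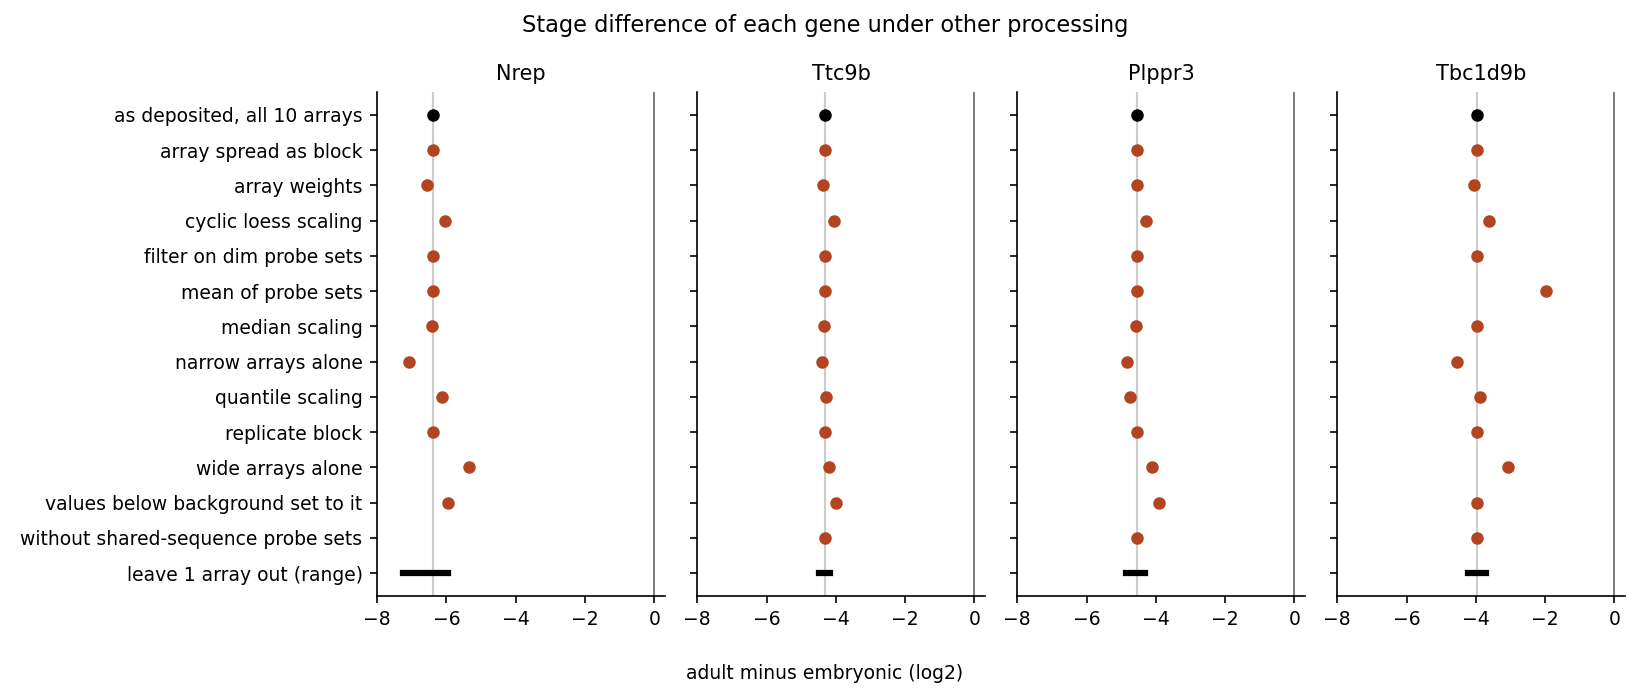
Adult minus embryonic log2 difference (horizontal axis) of each gene as deposited (black point) and under other processing (red points), with the black bar spanning the 10 fits that leave out 1 array. Every point lies below 0, which the choice of the genes fixed in advance for subsets of arrays. The largest departure is that of Tbc1d9b when its dim probe set is averaged in, at -1.97.

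The genes with the most similar profiles to each gene over the 10 arrays were found by the same measure, and since they resemble genes chosen for a large stage difference, their own differences are given without a test. For Nrep they were Apc2, which binds microtubules as its relative Apc does (root mean squared difference 1.07), Kif5c (1.49) and Kif1a (1.54). Kif5c and Kif1a are kinesins, motors that carry cargo away from the cell body. Apc2 shared with Nrep a high value on adult replicate 5, at 6.30 against 2.62 to 3.41 on the other adult arrays. For Ttc9b they were Trak2 (0.59), an adaptor that links mitochondria to kinesin, the membrane proteolipid Nnat, neuronatin (0.64), and the zinc finger gene Zfp428 (0.66). For Plppr3 they were Kif5c (0.81), Crmp1 (0.81), a collapsin response mediator of growth cone signalling, and Pcbp3 (0.82), a poly(C)-binding protein. For Tbc1d9b they were Zfp428 (0.59), Khdrbs3 (0.64), an RNA-binding splicing regulator, and Trak1 (0.72), the partner gene of Trak2. Adult replicate 5 was also the highest adult array for Plppr3, Crmp1, Pcbp3, Zfp428 and Khdrbs3, but not for the other genes of these profiles. Among adult arrays it had the lowest poly-A and 5S controls, 7.86 and 2.72, and their part in these values was not tested.

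Trak2, the closest to Ttc9b outside the 4 genes, had means of 7.23 ± 0.81 in adult and 11.34 ± 0.77 in embryonic samples (SD, n = 5 each). The other probe set of Trak2 had 5.94 and 10.49. Trak1 had 4.48 ± 1.63 and 7.84 ± 0.77. Zfp428, which stood beside both Ttc9b and Tbc1d9b, had 4.24 ± 0.66 in adult and 7.58 ± 0.52 in embryonic samples. Its other probe set was above background on 0 adult arrays and 1 embryonic array. The other probe sets of Kif5c were less negative, with log2 differences of -2.68 and -1.89 against -5.32, and those of Pcbp3 had -1.22 and -0.27 against -3.68. These probe sets were dim, with Kif5c above background on 1 and 0 adult arrays and 5 and 4 embryonic arrays, and Pcbp3 on 1 and 0 adult arrays and 3 and 0 embryonic arrays. The other probe sets of Kif1a had -4.39 and -0.18 against -4.85, and the one at -0.18 was above background on 0 of 10 arrays. The other probe set of Apc2 had -6.55 against -7.79.

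**Figure D3:**
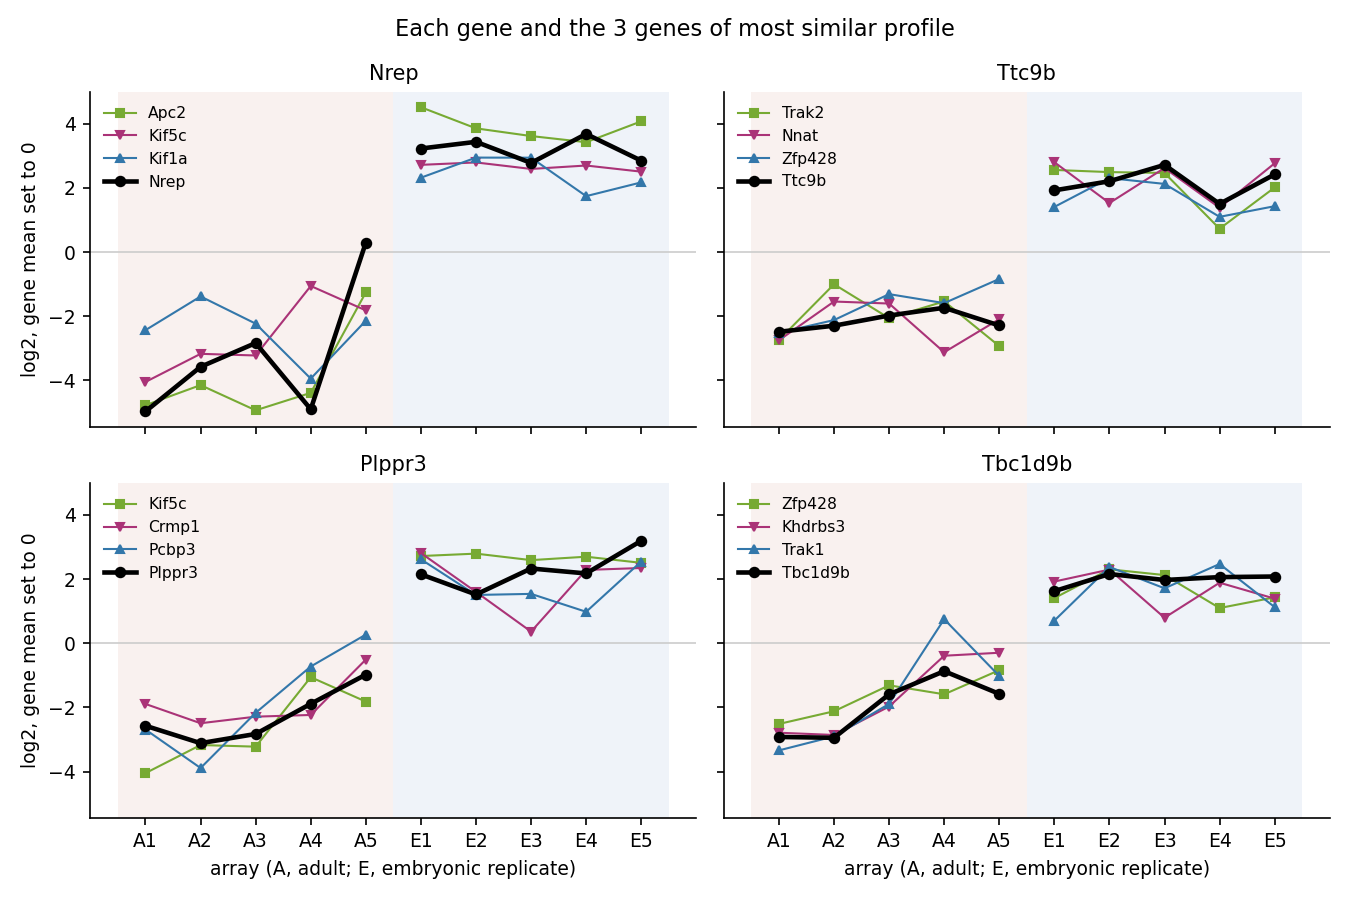
Log2 expression on each array with the mean of each gene over the 10 arrays set to 0 (vertical axis), for Nrep, Ttc9b, Plppr3 and Tbc1d9b (black) and the 3 genes of most similar profile (colours); lines join arrays of a stage for legibility, and replicates have no order. Adult arrays (A1 to A5) lie below embryonic arrays (E1 to E5) in every profile except at A4 for Trak1. Nrep and Apc2 are both raised at A5, which is also the highest adult array for Plppr3, Crmp1, Pcbp3, Zfp428 and Khdrbs3.

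Relatives of Plppr3 were examined next. Of 10 measured genes of the phospholipid phosphatase and PLPPR family, 0 passed the limma test at an adjusted p of 0.05, against 1.26% of all genes, and 1 had an unadjusted p under 0.05, against 13.3% of all genes. A trended, robust variance also called 0. The median log2 difference was 0.09, against -0.00086 over all genes. Plppr2, another inactive family member, had 3.91, 5.14, 4.58, 3.43 and 4.03 on adult arrays against 5.94, 5.70, 4.85, 6.54 and 5.69 on embryonic arrays. Its stages overlapped, and its log2 difference was -1.53 ± 0.39 (SE, n = 5; limma adjusted p = 0.13). Its other probe set had -0.58 (adjusted p = 0.71). Plppr4 and Plppr5, also inactive members, and Plpp4 were above background on 0 of 10 arrays by every probe set measured. Plpp1, an active phosphatase that degrades lysophosphatidic acid, was at 6.47 ± 1.74 in adult and 6.49 ± 1.87 in embryonic samples (SD; adjusted p = 0.999). Plpp5, another active family member, was at 5.61 ± 2.11 and 4.88 ± 1.26 (adjusted p = 0.92).

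Lysophosphatidic acid, the lipid that these phosphatases degrade, acts through receptors of growth cones and other cells. Of 10 measured genes of lysophospholipid receptors and autotaxin, the enzyme that makes the lipid, 1 rose in adult samples and 0 fell, where 0.612% and 0.647% of all genes did. The list median was 0.59. The gene was Lpar6, a receptor for lysophosphatidic acid, with 6.61, 5.85, 6.73, 6.39 and 5.59 on adult arrays against 4.20, 2.23, 3.05, 3.20 and 2.39 on embryonic arrays. The stages did not overlap, and the gene rose in adult samples, with a log2 difference of 3.22 ± 0.40 (SE, n = 5; limma adjusted p = 0.0047). It was above background on 5 adult arrays and 1 embryonic array, and with values below background set to that level the log2 difference was 2.37, or 5.17-fold higher in adult samples. Of the macrophage and leucocyte markers 7 of 13 rose in the same comparison, and their part in the Lpar6 value was not tested. With the 4 wide arrays alone the log2 difference of Lpar6 was 2.70 (adjusted p = 0.27), in a fit that called 0 of all genes. Lpar1 was at 6.89 ± 1.63 in adult and 4.88 ± 1.19 in embryonic samples (adjusted p = 0.41), and the sphingosine 1-phosphate receptor S1pr3 at 4.39 ± 1.37 and 3.70 ± 0.58 (adjusted p = 0.83). Autotaxin, Enpp2, was above background on 0 of 10 arrays.

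Relatives of Tbc1d9b came next. Of 33 measured genes of TBC domain proteins, 1 rose (Tbc1d4) and 1 fell (Sgsm2), against 0.612% and 0.647% of all genes, with a list median of 0.24. Tbc1d9, the closest relative by name, had 6.14, 4.37, 2.45, 5.95 and 5.05 on adult arrays against 6.17, 5.11, 6.38, 5.24 and 8.03 on embryonic arrays. Its stages overlapped, and its log2 difference was -1.39 ± 0.75 (SE; adjusted p = 0.62). Tbc1d4, the Rab GTPase-activating protein of insulin-stimulated glucose transporter traffic, had 6.94, 8.30, 9.37, 7.84 and 6.02 on adult arrays against 2.37 to 2.87 on embryonic arrays. It was below background on all embryonic arrays and at least 16.3-fold higher in adult samples (measured means 7.70 and 2.59; limma adjusted p = 0.0015). Its other probe set had a log2 difference of 1.63 (adjusted p = 0.31). Sgsm2, a TBC protein that in mice regulates Rabs of melanosomes, had 2.83, 2.66, 3.57, 2.75 and 2.93 on adult arrays against 4.82, 5.91, 4.82, 5.82 and 4.96 on embryonic arrays. All adult arrays were below background, and the level was lower in adult samples by at least 2.73-fold (measured means 2.95 and 5.27; limma adjusted p = 0.0072). The call of Sgsm2 was lost with the replicate number as a block (log2 difference -2.32, adjusted p = 0.057) and with the 6 narrow arrays alone (-2.49, adjusted p = 0.079). With the 4 wide arrays alone, Sgsm2 had -2.05 (adjusted p = 0.095) and Tbc1d4 4.31 (adjusted p = 0.15).

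Among the other TBC genes, Tbc1d13 was at 5.63 ± 0.84 in adult and 6.96 ± 0.28 in embryonic samples (adjusted p = 0.19). Tbc1d1, the close relative of Tbc1d4, was at 6.29 ± 0.95 and 5.69 ± 1.23 (adjusted p = 0.88), and Rabgap1 at 6.39 ± 1.07 and 5.90 ± 1.32 (adjusted p = 0.93). Tbc1d16 and Evi5l, chosen after their values were seen, had no overlap between stages and log2 differences of -2.34 and -1.30, with adjusted p values of 0.063 and 0.14. Tbc1d16 passed with dim probe sets filtered out (adjusted p = 0.037) and with probe sets averaged (0.047). Of 18 genes of Rab11 and recycling endosomes, 0 passed the limma test and 2 had an unadjusted p under 0.05, against 1.26% and 13.3% of all genes, and a trended, robust variance called 0. Rab11a, the Rab on which Tbc1d9b acts in canine cells, had 8.63, 8.34, 9.21, 10.33 and 10.01 on adult arrays against 8.97, 8.81, 8.63, 8.11 and 8.98 on embryonic arrays. Its stages overlapped, with a log2 difference of 0.60 ± 0.40 (SE; adjusted p = 0.73). Its other probe set had -0.47 (adjusted p = 0.97). Rab11b was at 6.63 ± 0.88 in adult and 7.46 ± 0.38 in embryonic samples (adjusted p = 0.57), and Rab8a at 5.91 ± 1.45 and 6.05 ± 0.64 (adjusted p = 0.98). The median of the list was -0.12.

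Partners of Nrep were the eIF3 subunits and the TGF-beta pathway. Of 11 measured eIF3 subunits 0 passed the limma test, 0 had an unadjusted p under 0.05 (1.26% and 13.3% of all genes) and 0 passed with a trended, robust variance, while 10 of the 11 log2 differences were negative, with a median of -0.92. Eif3b, the subunit reported to bind the protein in mouse cells, had 7.06, 5.26, 6.18, 8.19 and 7.71 on adult arrays against 8.17, 7.96, 7.5, 8.22 and 7.89 on embryonic arrays. The 2 wide adult arrays lay within the embryonic range and the 3 narrow ones below it (log2 difference -1.07 ± 0.50, SE; adjusted p = 0.53). Eif3f was at 9.63 ± 0.88 in adult and 9.94 ± 0.42 in embryonic samples (adjusted p = 0.93), Eif3h at 8.29 ± 1.54 and 9.51 ± 0.40 (adjusted p = 0.60), and Eif3i at 7.10 ± 2.13 and 8.36 ± 0.83 (adjusted p = 0.76). The other probe set of Eif3h had the opposite sign, 1.58 (adjusted p = 0.48).

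Of 21 measured genes of TGF-beta ligands, receptors and Smads, 0 passed the limma test, 4 had an unadjusted p under 0.05 (1.26% and 13.3% of all genes) and a trended, robust variance called 0, with a list median of 0.11. The ligand Tgfb1 was above background on 0 of 10 arrays. The type I receptor Tgfbr1 was at 6.95 ± 0.74 in adult and 4.53 ± 1.72 in embryonic samples (adjusted p = 0.22), and at an adjusted p of 0.049 without embryonic replicate 4. Its other probe set was above background on 0 of 10 arrays. Smad1, which carries BMP signals, was at 4.84 ± 1.78 in adult and 6.82 ± 1.25 in embryonic samples (adjusted p = 0.48), and Smad4, the shared Smad of both branches, at 6.41 ± 1.37 and 6.36 ± 0.81 (adjusted p = 0.99).

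Of 29 measured TTC genes, which share tetratricopeptide repeats with Ttc9b, 0 passed the limma test, 3 had an unadjusted p under 0.05 (1.26% and 13.3% of all genes) and a trended, robust variance called 0, with a list median of -0.04. Ttc9, the founding member of the small TTC9 family, had 4.19, 5.79, 4.46, 4.45 and 5.10 on adult arrays against 5.46, 4.69, 6.77, 4.38 and 4.39 on embryonic arrays. Its stages overlapped, and its log2 difference was -0.34 ± 0.50 (SE; adjusted p = 0.93). The third member, Ttc9c, was at 6.90 ± 1.5 in adult and 5.66 ± 2.04 in embryonic samples (adjusted p = 0.81), and its other 3 probe sets had differences of -1.02, -0.86 and 1.66. Ttc3, a ubiquitin ligase with such repeats, was at 7.24 ± 1.08 in adult and 9.31 ± 0.99 in embryonic samples (log2 difference -2.07 ± 0.59, SE; adjusted p = 0.18), and at an adjusted p of 0.031 with wide or narrow arrays as a block. Its other probe sets had -2.91 (adjusted p = 0.28) and -0.86 (0.72). Ttc1 was at 5.29 ± 1.48 and 5.43 ± 0.99 (adjusted p = 0.98).

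**Figure D4:**
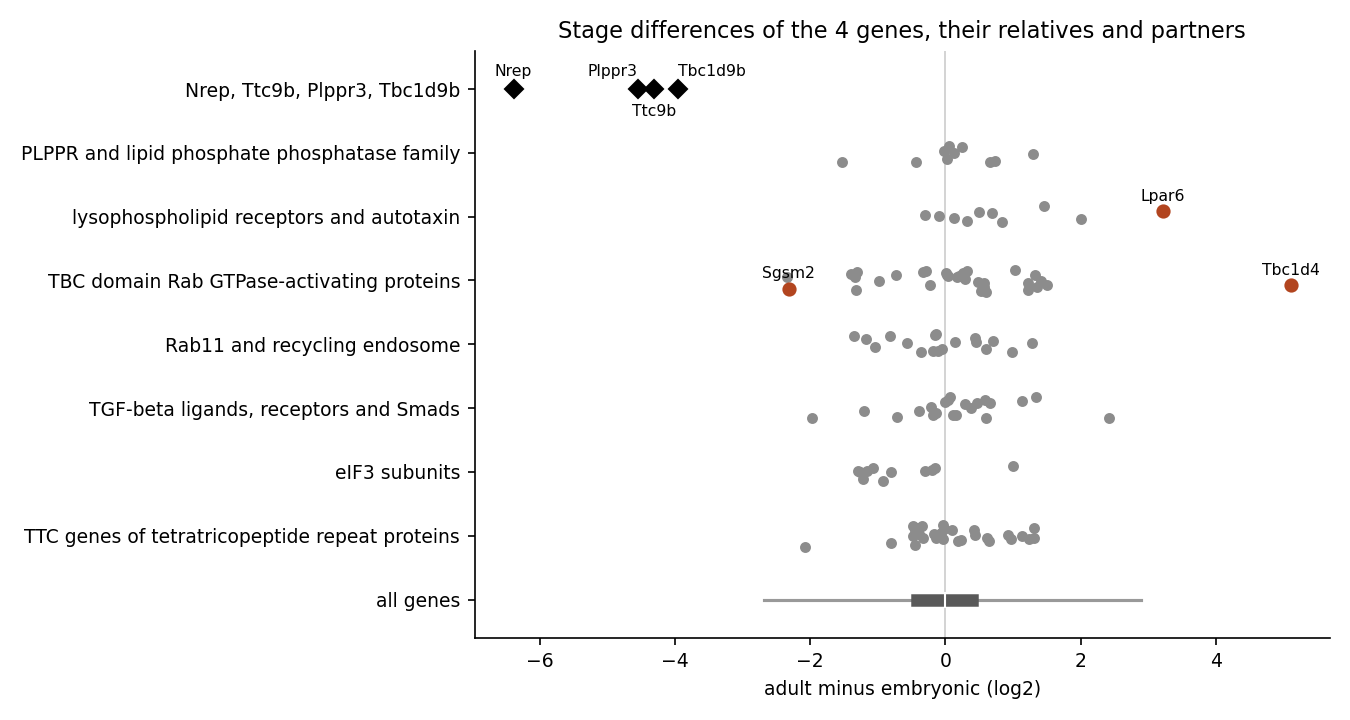
Adult minus embryonic log2 difference (horizontal axis) of Nrep, Ttc9b, Plppr3 and Tbc1d9b (black diamonds) and of every measured gene on the lists of relatives and partners (points; red and named where limma called the gene); the bottom row shows the 1st to 99th percentile of all 14217 genes (thin bar), the quartiles (thick bar) and the median. The 4 genes were chosen for large falls, unlike the lists, and each lies to the left of every gene on the lists. Lpar6, Sgsm2 and Tbc1d4 are the called genes.

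The nearest measured protein-coding genes on either side of the 4 genes in the GRCr8 annotation were looked up after the values were seen. Of these 8 neighbours 0 passed the limma test and 5 had an unadjusted p under 0.05 (1.26% and 13.3% of all genes), and their log2 differences ran from -1.67 to 2.02. Beside Nrep, the sterol transporter gene Stard4 had 1.83 ± 0.43 (SE; adjusted p = 0.091) and Epb41l4a -1.67 ± 0.45 (adjusted p = 0.15). Beside Ttc9b, the kinase genes Akt2 and Map3k10 had 0.54 ± 0.64 (adjusted p = 0.90) and -0.94 ± 0.48 (0.59). Beside Plppr3, the splicing repressor gene Ptbp1 had 1.85 ± 0.61 (adjusted p = 0.27), at 5.70 ± 1.45 in adult and 3.85 ± 0.43 in embryonic samples, and Cfd, complement factor D, had 2.02 ± 0.88 (adjusted p = 0.48). Beside Tbc1d9b, Rnf130 had 1.14 ± 0.47 (adjusted p = 0.43) and Mrnip -0.47 ± 0.42 (0.83).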

How the data were processed

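RNA of adult and embryonic axons was measured on 10 Affymetrix whole-genome rat arrays. The log2 values were deposited by the authors and made with RMA, per the submitters' processing notes. The sources used here give no version or options of RMA, and the base of the logarithm was taken from the range of the values. The table has no detection calls, and RMA compresses differences of dim probe sets. Of 31099 probe sets 57 were controls, 20826 of the rest had 1 gene symbol in the platform annotation, 436 several and 9780 none. Where several probe sets named a gene, the one with the highest mean over the 10 arrays stood for it, which gave 14217 genes.

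Stage differences, adult minus embryonic, came from a two-sided limma 3.58.1 test (R 4.3.3; eBayes after lmFit) over the 10 arrays, with no block, and p-values were adjusted by Benjamini-Hochberg over 31042 probe sets, with a threshold of 0.05. The number of arrays limits the precision. Background came from 120 probe sets for 101 tissue-restricted genes that sensory neurons should lack. The fit was tested on simulated data. The members, lists, rules and array split were chosen with earlier results of these data known. Named were the 4 genes, the 3 genes outside the 4 of most similar profile to each, and called genes plus the 3 brightest of each list of relatives. Others were chosen after their values were seen. Of the marker lists, the genes named in the report were called, lacked signal at a stage, or had an array far from the rest. Alternatives were 3 scalings, a filter, blocks, array weights, subsets of arrays, other probe set summaries, another variance model and 2 other background percentiles, and setting dim values to background, for the 4 genes and called relatives, was added after seeing the data. Same-numbered arrays of the stages were not paired, since the correlation of their deviations from the stage means ran from -0.12 to 0.28. Figures used Python 3.11.15, pandas 2.3.3 and matplotlib 3.10.9.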

Additional observations from a re-analysis of the deposited data

Results flagged for a closer look

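Of 104 sets of 5 arrays checked for the genes named by the rule, 6 had an array far from the rest, where chance gives about 1 in 20, and 0 of these were sets of Nrep, Ttc9b, Plppr3 or Tbc1d9b. Apc2, the gene closest to Nrep in profile, was at 6.295 on adult replicate 5, with the next adult array at 3.407. The neuronal growth cone gene Gap43 was also high on adult replicate 5, at 11.59 against 9.707 on the next array. Stmn2, a neuronal tubulin regulator, was at 6.989 on embryonic replicate 4, with the next array at 10.83, and Plpp5 was low on the same array, at 2.684 against 5.105. Rbfox3, a neuronal splicing factor, was at 6.065 on adult replicate 2, with the next array at 4.062. The other probe set of Rbfox3 was at 2.714 on that array, the lowest of its adult values. Sgsm2 was at 3.57 on adult replicate 3, with the next array at 2.926, and both lie below background.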

How the results depend on the processing

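The log2 differences of the 4 genes kept their sign in every alternative run. For subsets of arrays this sign was fixed by the choice of genes without overlap between stages. Averaging probe sets moved that of Tbc1d9b to -1.97, since its dim probe set enters the mean. Leaving out 1 array gave -7.26 to -5.95 for Nrep, -4.47 to -4.17 for Ttc9b, -4.87 to -4.32 for Plppr3 and -4.24 to -3.72 for Tbc1d9b. Nrep has no value without probe sets of shared sequence, because the ID of its one probe set carries such a suffix. At the 90th percentile of background Nrep was above it on 3 adult arrays, and at the 99th Tbc1d9b was on 3. The 179 genes called over the whole table, 92 lower and 87 higher, became 276 (161 lower) with wide or narrow arrays as a block, 314 (157 lower and 157 higher) with a filter that kept 7614 genes, and 0 (0 lower, 0 higher) by limma with the 4 wide arrays alone, where 2810 had an unadjusted p under 0.05. Leaving out 1 array gave 101 to 248 (53 to 151 lower, 44 to 109 higher), the fewest without adult replicate 4 and the most without adult replicate 5. With the replicate block the 4 differences stayed at -6.39, -4.31, -4.55 and -3.96 and 135 genes were called, and TBC genes called went to 1. TBC genes called were 1 with the narrow arrays and 0 with the wide arrays alone, where lysophospholipid genes called were also 0, and 2 to 3 when 1 array was left out, where Tbc1d16 was added without embryonic replicate 2 or 4. TGF-beta genes called were 0 to 1 (Tgfbr1), and TTC genes 0 to 1 (Ttc7a, without adult replicate 3) and 1 with the spread as a block (Ttc3). The cause of these shifts was not tested beyond the fewer genes or arrays that a filter or subset leaves.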
